A study of Mus musculus with 93 samples.

Results

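The livers of 129S1/SvImJ and C57BL/6J mice fed a western diet were compared across all expressed genes. The samples were chosen by their labels alone, as every mouse on the western diet (WD) of strain 129S1/SvImJ, 6 mice, and of strain C57BL/6J, 8 mice, which is 14 of the 93 mice profiled in 7 inbred strains on 2 diets. Of 53465 genes in the count table, 19110 had enough reads to be tested. All mice were males, housed at 30°C from 6 wk of age, given WD (40% of energy from fat) or a matched control diet (CD, 10%) from 7 wk for 17 wk, and killed at 24 wk after a 4-h fast. Neither strain carries a transgene, and no drug was given. The same strains on CD, 7 129S1/SvImJ and 8 C57BL/6J mice, served to place each difference beside the one without WD. Levels are given as counts per 1000000 reads on genes (CPM) after scaling for library composition, which do not account for gene length and so are compared between mice and not between genes. A strain difference is a log2 fold change, 129S1/SvImJ over C57BL/6J, with its SE and an adjusted p from limma-voom with Benjamini-Hochberg adjustment over all tested genes, and a gene was called past adjusted p = 0.05.

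The liver handles dietary fat by burning it, exporting it in lipoproteins, or storing it as triglyceride in lipid droplets, and it makes new fatty acids and sterols under the SREBP transcription factors. On a WD, droplet coat proteins and the nuclear receptor PPARG, which is low in lean liver, typically rise, and macrophages, stellate cells and matrix genes follow as steatosis turns into steatohepatitis. C57BL/6J is the reference strain of the mouse genome and is known to carry a deletion within Nnt, the mitochondrial transhydrogenase. 129S1/SvImJ is an inbred strain of the 129 family, and reads from it were aligned to the C57BL/6J genome.

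Reads on genes ran from 46138359 to 47795742 in the 129S1/SvImJ WD libraries and from 48126749 to 49112273 in the C57BL/6J WD libraries, and RNA integrity numbers from 8.4 to 9.1 and from 8.0 to 9.0. The unmapped share was 5.57 ± 0.673% (SD, n = 6) in 129S1/SvImJ and 2.82 ± 0.621% (n = 8) in C57BL/6J, with no overlap between the strains and no test of its part in single genes (exact permutation test, two-sided, p = 0.000333, adjusted p = 0.00133 over 4 shares). The labels give cohorts, and none held both strains: the 129S1/SvImJ mice came from cohorts 3 and 5 and the C57BL/6J mice from cohorts 1 and 2, so strain and cohort cannot be told apart from these mice alone, and a fit of all 93 mice with cohort as an additive term, which links cohorts through other strains, is given for the named WD calls that it ends, with its adjusted p, and for the lists whose counts it moves by over 1.5 times. The unmapped share of C57BL/6J was 2.14 to 3% in cohort 1 and 3.16 to 3.87% in cohort 2, and its permutation test did not use cohort. One WD library stood apart, C57BL/6J replicate 3 of cohort 1, whose median correlation with its group was 0.9759 against 0.9814 to 0.9895 for the other 7. One CD library, C57BL/6J replicate 2, stood apart more, at 0.9497. Nnt was at 131, 144 and 153 CPM (lowest, median, highest) in 129S1/SvImJ and at 55.9, 76 and 86.4 CPM in C57BL/6J, a log2 difference of 0.94 ± 0.07 that goes with the strain labels. Alb, the hepatocytes' albumin, did not pass the test (0.13 ± 0.09, adjusted p = 0.3), and of 18 hepatocyte markers 7 were higher and 3 lower (3 and 3 with cohort as a term). Pancreas enzymes appeared in 1 mouse only: Cpa1 was at 19.3 CPM in C57BL/6J WD replicate 7 and at most 0.0408 CPM in the other 13.

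On WD, 7234 of the 19110 genes (37.9%) differed between the strains, 3633 (19.0%) higher and 3601 (18.8%) lower in 129S1/SvImJ. Many differences were small: 3462 were under 1.5-fold, 2258 were over 2-fold and 218 over 16-fold. A test against a 2-fold threshold (limma treat) called 784 genes (4.10%). The levels of the 6 and 8 mice did not overlap for 2881 genes (15.1%), 1587 higher (8.30%) and 1294 lower (6.77%). With cohort as a term 4508 genes (23.6%) were called, of which 4303 were called in the same direction without it and 0 in the opposite one. The plot of the gene lists sets each list against these shares. On CD, 24.5% of all genes were higher and 24.4% lower.

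**Figure D1:**
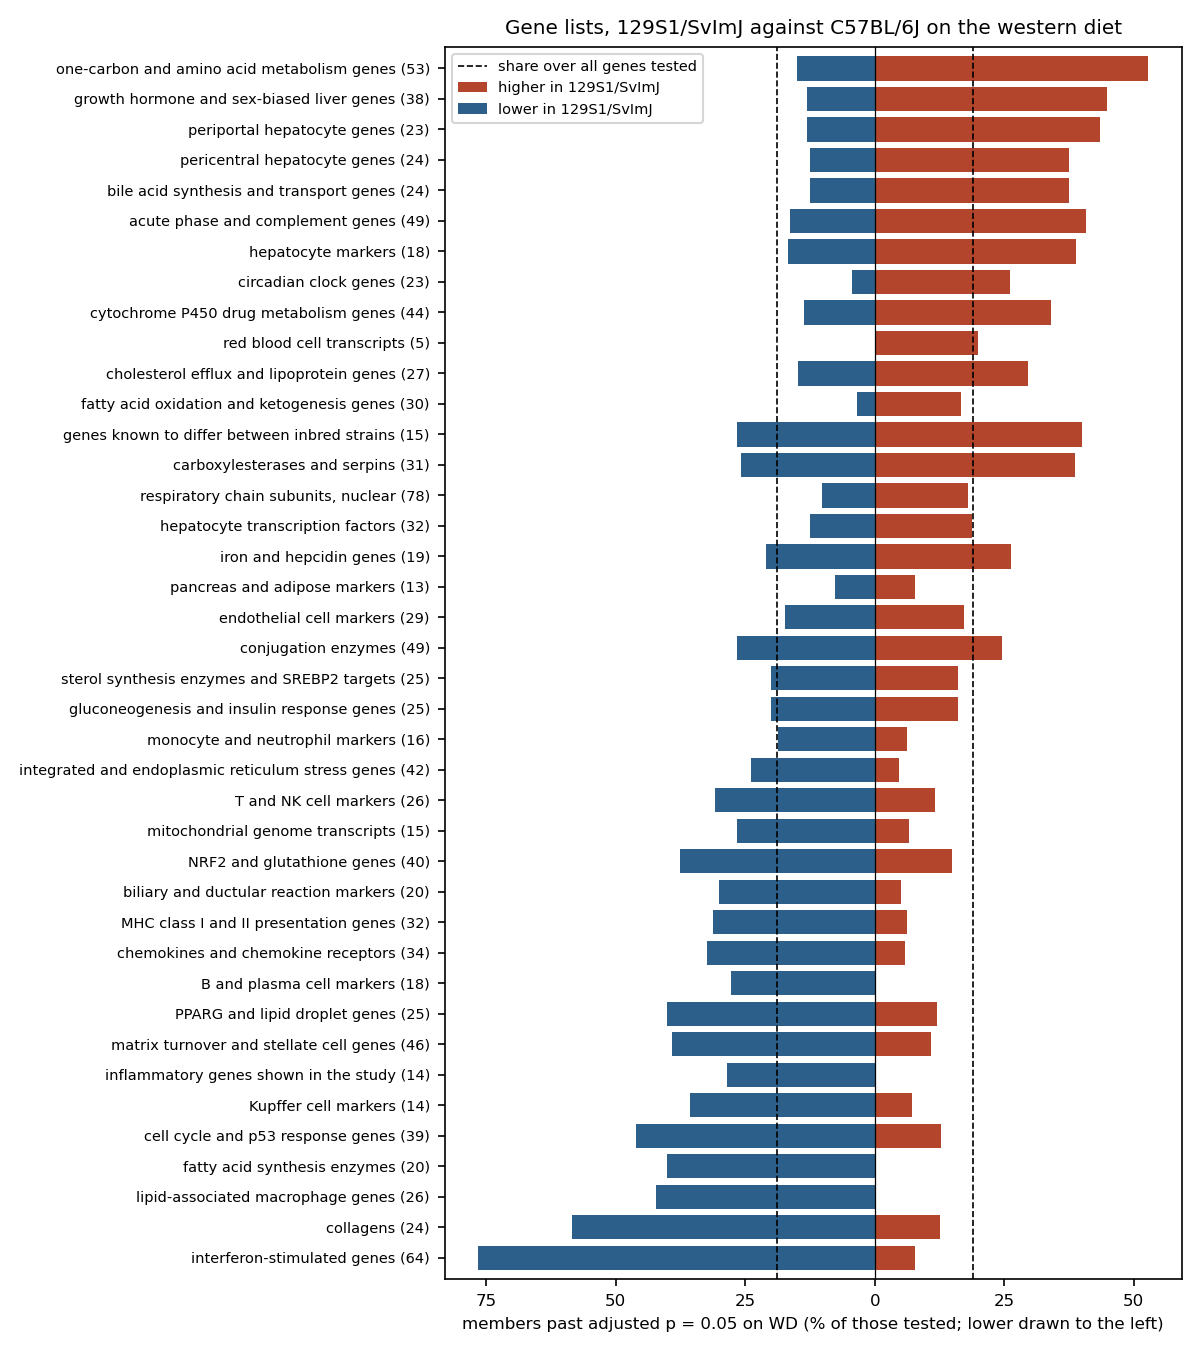
Share of each list's tested members (number in brackets) called higher (right, red) or lower (left, blue) in 129S1/SvImJ than in C57BL/6J on WD, in percent, with dashed lines at the shares over all genes, 19.0% and 18.8%. Interferon-stimulated genes reach furthest to the left, with 49 of 64 lower, and one-carbon and amino acid genes furthest to the right, with 28 of 53 higher.

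Lipid droplet genes held the largest differences of the lipid lists. Of 25 tested genes of PPARG and the lipid droplet, 10 were lower and 3 higher in 129S1/SvImJ. Their median difference was -0.71 against -0.00864 over all genes, and 9 were lower and 1 higher with cohort as a term. Lower droplet genes did not go with a lower steatosis score: in the study's histology, this strain scored highest for steatosis among all strains. How these transcript levels relate to stored fat was not tested. Cidec, which fuses small droplets into large ones, was at 4.45, 8.6 and 19.8 CPM (lowest, median, highest) in 129S1/SvImJ and at 66.3, 142 and 195 CPM in C57BL/6J. Every 129S1/SvImJ mouse lay below every C57BL/6J mouse, and the difference was -4.04 ± 0.48 (adjusted p = 2.2e-11), 16.4-fold. Cidea, its relative, which is hardly expressed in lean liver, was at 0.0393, 0.0809 and 0.202 CPM in 129S1/SvImJ and at 2.4, 15.7 and 36.7 CPM in C57BL/6J, again without overlap (-7.16 ± 1, adjusted p = 5.4e-09). The lowest C57BL/6J value of Cidea was that of replicate 3, and leaving out each of the 14 mice in turn gave differences of -7.55 to -6.95.

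Both genes were also higher in C57BL/6J mice on WD than on CD (adjusted p = 8.3e-10 for Cidec and 2e-10 for Cidea). On CD, Cidec was at 2.72 to 3.72 CPM in 129S1/SvImJ and at 6.03 to 68.8 CPM in C57BL/6J, and Cidea stayed under 0.1 CPM in every 129S1/SvImJ CD mouse. The strain difference of Cidec was -2.2 on CD, and the interaction between strain and diet did not pass the test for Cidec (-1.84, adjusted p = 0.18) or Cidea (-4.96, adjusted p = 0.089).

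The droplet coat genes did not move as one. Plin4 was lower in 129S1/SvImJ (3.08, 11.1 and 38.2 CPM against 25.7, 44.7 and 68.6 CPM, -2.08 ± 0.38, adjusted p = 6.3e-06), as was Plin2, the main coat protein of hepatocyte droplets (331, 394 and 528 CPM against 544, 775 and 935 CPM, -0.89 ± 0.3, adjusted p = 0.012). Plin1 and Plin5 were not called, at -0.89 ± 0.88 and -0.2 ± 0.24. Pparg itself was at 6.86, 11.5 and 15 CPM in 129S1/SvImJ and at 9.23, 23.1 and 36 CPM in C57BL/6J (-0.92 ± 0.23, adjusted p = 0.00079). The 3 C57BL/6J mice of cohort 2 had 9.23 to 15.5 CPM of Pparg, overlapping the 129S1/SvImJ range, and the 5 of cohort 1 had 20.8 to 36 CPM. Without C57BL/6J cohort 1 the calls of Pparg and Plin2 were lost, and without 129S1/SvImJ cohort 3 those of Pparg, Plin2 and Plin4. That of Plin2 was also lost with cohort as a term (adjusted p = 0.25). The PPARG targets Fabp4 (-1.31 ± 0.22), Cd36 (-0.71 ± 0.22) and Fitm1 (-1.34 ± 0.27) were lower too, though Cd36 lost its call without either of those cohorts and with cohort as a term (adjusted p = 0.065). Against this direction, Dgat2, which makes triglyceride, was higher in 129S1/SvImJ, at 554, 684 and 852 CPM against 305, 506 and 566 CPM (0.48 ± 0.1, adjusted p = 6.3e-05).

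Of 20 fatty acid synthesis enzymes and their regulators, 8 were lower and 0 higher in 129S1/SvImJ (median -0.39). Elovl6, which lengthens palmitate, was at 49.4, 53.8 and 66.5 CPM against 95.5, 159 and 195 CPM in C57BL/6J, without overlap (-1.45 ± 0.23, adjusted p = 3.5e-07). Acaca, the acetyl-CoA carboxylase that commits carbon to fatty acid synthesis, was lower without overlap as well (-0.98 ± 0.22, adjusted p = 0.00021). Scd1, the stearoyl-CoA desaturase and among the most abundant transcripts of these livers, was at 12607, 17647 and 26633 CPM in 129S1/SvImJ and at 14550, 36242 and 44080 CPM in C57BL/6J (-0.91 ± 0.3, adjusted p = 0.011). The desaturases Fads1 (-0.41 ± 0.12) and Fads2 (-0.81 ± 0.18) and the carboxylase Acacb (-0.9 ± 0.26) were called as well, and Fasn (-0.74 ± 0.29, adjusted p = 0.036) lost its call with cohort as a term (adjusted p = 0.1), without 129S1/SvImJ cohort 3 or 5 or C57BL/6J cohort 1, and on leaving out any of 129S1/SvImJ replicates 2, 3 and 6 or C57BL/6J replicates 1, 2, 4, 5 and 6. Scd1, Fads1 and Fads2 lost theirs without 129S1/SvImJ cohort 3, and Fads1 also without C57BL/6J cohort 1. Srebf1, the regulator of this pathway, overlapped between the strains on WD (-0.21 ± 0.23, adjusted p = 0.51). On CD it was higher in 129S1/SvImJ, at 440 to 743 CPM against 98.1 to 375 CPM, and its interaction was called (-1.87, adjusted p = 5.4e-05).

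**Figure D2:**
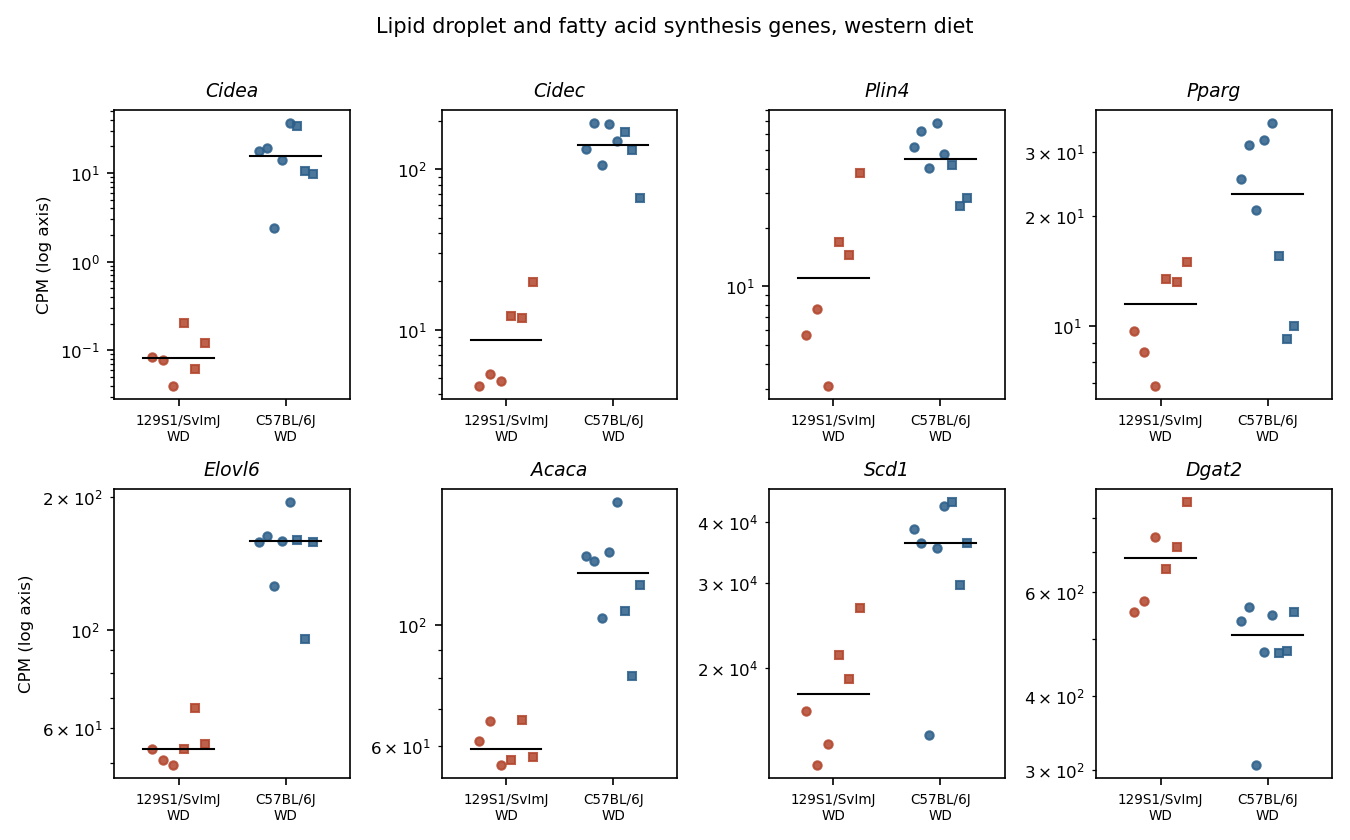
CPM on a log axis of 8 lipid genes in each WD mouse (red, 129S1/SvImJ, cohort 3 as circles and cohort 5 as squares; blue, C57BL/6J, cohort 1 as circles and cohort 2 as squares), with bars at the median; the axes differ between panels. Cidec lies at 4.45 to 19.8 CPM in 129S1/SvImJ and 66.3 to 195 CPM in C57BL/6J, while Dgat2 is the panel in which 129S1/SvImJ lies higher.

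Sterol synthesis showed no common direction. Of 25 enzymes and SREBP2 targets, 4 were higher and 5 lower, and 1 and 4 with cohort as a term. Hsd17b7 was higher (0.79 ± 0.19), a call lost with that term (adjusted p = 0.062), and Cyp51 (-0.77 ± 0.21) and Sc5d (-0.74 ± 0.14) were lower. Of 30 fatty acid oxidation and ketogenesis genes, 5 were higher and 1 lower, 2 and 1 with cohort as a term. Acadm, the medium-chain dehydrogenase, was higher without overlap (0.6 ± 0.11, adjusted p = 3.6e-06), and Cpt1a, which admits fatty acids to mitochondria, was at -0.4 ± 0.18 (adjusted p = 0.075).

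Bile acid synthesis differed at its first step. Cyp7a1, the rate-limiting enzyme that turns cholesterol into bile acids, was at 261, 414 and 681 CPM in 129S1/SvImJ and at 46.6, 76.5 and 139 CPM in C57BL/6J. The groups did not overlap, and the level was 5.67-fold higher in 129S1/SvImJ (2.5 ± 0.54, adjusted p = 0.00011). Cyp7b1 of the alternative route was higher by 1.41 ± 0.35, Cyp8b1, which sets the cholic acid share, was not called (0.34 ± 0.27), and Cyp39a1 was lower (-1.71 ± 0.38). The calls of Cyp7b1 and Cyp39a1 were lost without C57BL/6J cohort 1. Nr0b2 (SHP), the receptor that represses Cyp7a1, was lower in 129S1/SvImJ (4.27, 9.28 and 22.3 CPM against 8.32, 33.7 and 43.9 CPM, -1.38 ± 0.38, adjusted p = 0.0025), a call lost without 129S1/SvImJ cohort 5, and Nr1h4, the bile acid receptor FXR, was not called (0.18 ± 0.11). Slc10a1, the bile salt uptake carrier, was higher without overlap (0.82 ± 0.19), while the exporter Abcb11 was not called (-0.03 ± 0.12). In all, 9 of 24 genes of this list were higher and 3 lower, 5 and 2 with cohort as a term. On CD, Cyp7a1 was higher in 129S1/SvImJ by 1.97 (adjusted p = 0.00096, and 0.057 with cohort as a term), and its interaction was not called (0.53, adjusted p = 0.78).

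Among lipoprotein genes, 8 of 27 were higher and 4 lower. Apoa5, which aids triglyceride clearance from plasma, was at 270, 322 and 362 CPM against 550, 637 and 894 CPM (-1.03 ± 0.13, adjusted p = 1.5e-10), and on CD the strains differed by -0.25 (adjusted p = 0.089), with a called interaction (-0.78, adjusted p = 0.0061). Apoc3 (0.38 ± 0.09) and Apom (0.74 ± 0.13) were higher, and Apob and Mttp were not called. The call of Apoc3 was lost without C57BL/6J cohort 1.

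Growth hormone pulses give male liver its own pattern of P450s, major urinary proteins (Mup) and sulfotransferases. Of 38 such sex-biased and growth hormone genes, 17 were higher and 5 lower in 129S1/SvImJ. Ghr, the growth hormone receptor, was higher without overlap (642, 681 and 712 CPM against 291, 486 and 527 CPM, 0.58 ± 0.09, adjusted p = 3.6e-07), and Igf1, its main secreted product, was higher by 0.4 ± 0.12, a call that was lost without 129S1/SvImJ cohort 5 or C57BL/6J cohort 1 and with cohort as a term (adjusted p = 0.43). Stat5b, which carries the signal, was not called (0.05 ± 0.08). The male-biased Cyp4a12a was at 987, 1023 and 1181 CPM against 82.3, 221 and 342 CPM (2.45 ± 0.37, adjusted p = 4.4e-08), and reads can be misassigned between it and its near-identical copy Cyp4a12b. Hsd3b5, a male-biased steroid dehydrogenase, was at 116 to 197 CPM in 129S1/SvImJ, at 0.29 to 37.9 CPM in the 5 C57BL/6J mice of cohort 1 and at 33.1 to 147 CPM in the 3 of cohort 2. Its difference of 4.4 ± 0.92 (adjusted p = 5.6e-05) lost its call without C57BL/6J cohort 1.

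The called genes were not of one sex bias. Sult1e1, the estrogen sulfotransferase, was at 14, 23.2 and 43 CPM in 129S1/SvImJ and at 0.0564, 0.628 and 4.86 CPM in C57BL/6J (5.66 ± 0.55, adjusted p = 8e-15). Cyp2b9, a female-biased P450, was under 0.1 CPM in every 129S1/SvImJ mouse and at 0.929, 6.04 and 121 CPM in C57BL/6J (-7.29 ± 2.49, adjusted p = 0.015), and it lost its call with cohort as a term (adjusted p = 0.12) and without 129S1/SvImJ cohort 3 or 5. Mup20 (darcin), a male pheromone carrier, was lower in 129S1/SvImJ at 300, 564 and 673 CPM against 2946, 3186 and 4629 CPM (-2.75 ± 0.38, adjusted p = 3.2e-09). The other Mup genes are near-identical copies of each other, and reads cannot be assigned to them with certainty: Mup7, Mup1 and Mup2 were higher and Mup11 and Mup15 lower. Mup7 was at 0.274 to 87.5 CPM in C57BL/6J cohort 1 and at 143 to 423 CPM in cohort 2, the latter reaching above the 129S1/SvImJ range of 110 to 311 CPM, and without cohort 1 its difference was -0.19 and not called. The call of Mup11 was lost without 129S1/SvImJ cohort 3 or 5.

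Cytochrome P450 genes of drug metabolism were higher in 15 and lower in 6 of 44. Cyp2c39, an arachidonate and retinoid hydroxylase, was at 158, 214 and 290 CPM in 129S1/SvImJ and at 2.44, 3.75 and 6.69 CPM in C57BL/6J, 54.3-fold (5.76 ± 0.58, adjusted p = 4.4e-14). Cyp1a2 was higher without overlap (696, 821 and 961 CPM against 59.3, 215 and 281 CPM, 2.13 ± 0.21, adjusted p = 1.1e-14), with a larger difference on WD than on CD (interaction 1, adjusted p = 0.035). Cyp2e1, a pericentral ethanol and fatty acid oxidase, was at 10312, 11410 and 12212 CPM against 1936, 7320 and 9294 CPM (0.8 ± 0.19), the lowest C57BL/6J value being replicate 3, and the call was lost without C57BL/6J cohort 1. Nr1i3 (CAR), a receptor that drives many of these genes, was higher without overlap (1.4 ± 0.23, adjusted p = 6.3e-07), but its target Cyp2b10 was not called (0.01 ± 0.49). Cyp3a11 went the other way, at 1228, 1900 and 2439 CPM against 3065, 3544 and 4415 CPM (-0.98 ± 0.26, adjusted p = 0.0015), a call lost without 129S1/SvImJ cohort 3.

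Conjugation enzymes were split, 12 higher and 13 lower of 49. Ugt1a9 was at 166, 171 and 197 CPM in 129S1/SvImJ and at 3.86, 11.7 and 25.3 CPM in C57BL/6J (3.97 ± 0.19, adjusted p = 5e-33). It shares its last exons with the other genes of the Ugt1a cluster on chromosome 1, so that its level is uncertain. Ugt2b38 was under 0.1 CPM in every 129S1/SvImJ mouse and at 2.2, 10.4 and 32.8 CPM in C57BL/6J (-6.93 ± 1.6, adjusted p = 0.00027), and Nnmt, the nicotinamide methyltransferase, was lower (-1.74 ± 0.41), a call lost without 129S1/SvImJ cohort 3. Of 40 NRF2 and glutathione genes, 6 were higher and 15 lower, and 4 and 9 with cohort as a term. Gpx3 (-1.4 ± 0.3), Srxn1 (-0.97 ± 0.17) and Cbr1 (-1.04 ± 0.17) were lower and Cat, the catalase, was higher (0.5 ± 0.1), and the call of Gpx3 was lost with that term (adjusted p = 0.051).

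Type I interferon acts through a complex that holds STAT2 and IRF9 and binds the interferon-stimulated response element (ISRE), and IRF7 amplifies the signal. In 129S1/SvImJ, 49 of the 64 tested genes of this class were lower and 5 higher than in C57BL/6J (84.4% called against 37.9% of all genes), with a median difference of -0.83, and the mice did not overlap for 32 of those lower. Without C57BL/6J WD replicate 3 the counts were also 49 and 5, and with cohort as a term 38 were lower and 3 higher. In the same mice 5 of 14 Kupffer cell markers were lower and 1 higher (2 and 0 with cohort as a term), and their part in these values was not tested. On CD, 33 of the 64 interferon-stimulated genes were lower and 8 higher, with a median of -0.60 (33 and 7 without C57BL/6J CD replicate 2).

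An ISRE-type motif, GAAANNGAAA, was searched on both strands in the 250 bases before each annotated start in the RefSeq promoter table (GRCm38.p6). It was found in 2.98% of all 32851 windows, and 3.46% of the 27025 genes with a window held it. Of the 64 genes, 44 had a window in the table, and 27 of these held the motif (61.4%), among them 22 of 33 genes that were lower, 1 of 3 that were higher and 4 of 8 not called. The letters are those of the C57BL/6J reference; the 129S1/SvImJ sequence was not examined. The 6 stretches of 90 bases below are from genes that were lower and held the motif, with smaller and larger differences among them. Each runs 5′ to 3′ on the gene's strand with every base of a match in capitals. A match on the opposite strand reads TTTCNNTTTC.
Oas3 (chr5:120777685-120777774, - strand): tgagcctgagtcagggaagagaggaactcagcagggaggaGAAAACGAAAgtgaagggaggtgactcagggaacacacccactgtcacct
Rsad2 (chr12:26456523-26456612, - strand): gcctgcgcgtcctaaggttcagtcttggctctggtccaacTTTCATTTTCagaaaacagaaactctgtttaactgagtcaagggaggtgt
Isg15 (chr4:156200841-156200930, - strand): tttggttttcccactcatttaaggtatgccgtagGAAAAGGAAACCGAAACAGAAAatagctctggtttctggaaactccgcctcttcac
Ifit3 (chr19:34583350-34583439, + strand): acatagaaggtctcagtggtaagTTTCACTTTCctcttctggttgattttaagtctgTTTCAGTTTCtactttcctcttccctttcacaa
Slfn8 (chr11:83020811-83020900, - strand): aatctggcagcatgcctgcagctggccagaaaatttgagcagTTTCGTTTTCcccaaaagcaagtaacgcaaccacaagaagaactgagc
Trim30d (chr7:104507850-104507939, - strand): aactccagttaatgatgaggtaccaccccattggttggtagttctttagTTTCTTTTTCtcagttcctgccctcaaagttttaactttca
Isg15 held 3 overlapping matches and Ifit3 held 2, the other 4 held 1 each. Irf7, Irf9 and Oasl1 had windows without a match, and Usp18 had no entry.

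Irf7 was at 14.2, 18.1 and 21.5 CPM in 129S1/SvImJ and at 29.4, 47.1 and 63 CPM in C57BL/6J, without overlap (-1.29 ± 0.22, adjusted p = 1.3e-06). Irf9 (-0.55 ± 0.14) was lower without overlap too, and Stat2 was at -0.01 ± 0.08 (adjusted p = 0.96). Of the genes whose promoters are printed, Slfn8, a Schlafen family member, was at 0.408, 0.582 and 0.845 CPM against 4.47, 5.42 and 6.86 CPM (-3.23 ± 0.18, adjusted p = 2e-27). Oas3, a sensor of double-stranded RNA, was at 0.707, 1.44 and 1.69 CPM against 3.21, 4.95 and 6.13 CPM (-1.84 ± 0.24), and Rsad2 (viperin) was at 3.04, 7.47 and 7.96 CPM against 11.5, 16.3 and 24.4 CPM (-1.47 ± 0.28), each without overlap. The smallest differences were those of Ifit3 (-0.8 ± 0.2, adjusted p = 0.00091) and Isg15, the ubiquitin-like modifier (-0.69 ± 0.22, adjusted p = 0.0092), whose groups overlapped. Usp18, which removes ISG15 and damps the receptor, was lower without overlap (-1.57 ± 0.32, adjusted p = 3.5e-05). The guanylate-binding protein Gbp2 was lower (-1.23 ± 0.21), and Mx2 (1.2 ± 0.26), Xaf1 (0.91 ± 0.18) and Gbp11 (1.53 ± 0.38) were higher. The calls of Isg15 and Irf9 were lost without C57BL/6J cohort 2, that of Isg15 also without 129S1/SvImJ cohort 3, that of Mx2 without C57BL/6J cohort 1, and that of Gbp11 with cohort as a term (adjusted p = 0.12).

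A few members of the class had reads in a single strain and almost none in the other, on both diets. Reads were aligned to the C57BL/6J genome, and the part of sequence differences in these values was not tested. Trim12a (chr7:104299894-104315466, - strand, GRCm38), of the TRIM5 family of restriction factors, had 0 reads in all 6 129S1/SvImJ WD mice and 8.51, 9.84 and 11.3 CPM in C57BL/6J, at least 985-fold lower against a floor of 3 reads over the group. Its neighbour Trim30d was at 0.458, 0.667 and 0.719 CPM against 11.1, 12 and 17.3 CPM (-4.27 ± 0.26, adjusted p = 2.5e-25). In the cluster of DNA-sensing Ifi200 genes on chromosome 1, Ifi213 was at most 0.0411 CPM in 129S1/SvImJ and at 2.93, 3.86 and 5.62 CPM in C57BL/6J, Ifi204 (-2.45 ± 0.15) and Ifi209 (-2.61 ± 0.19) were lower, and Ifi202b was the reverse, at 3.74, 4.63 and 4.92 CPM in 129S1/SvImJ and at most 0.0376 CPM in C57BL/6J (8.11 ± 0.5, adjusted p = 2.5e-25). Ifi204 and Ifi209 have near-identical copies in that cluster, so the split of reads among them is uncertain. Their differences on CD were -2.51 and -2.8.

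For the regulators the strain difference on CD depended on the cohort of the 129S1/SvImJ mice. Irf7 on CD was at 14.3 to 15.2 CPM in the 3 mice of cohort 3 and at 40.4 to 53.4 CPM in the 4 of cohort 5, while on WD both cohorts lay at 14.2 to 21.5 CPM. Usp18, at 2.73 to 3.4 and 10.7 to 18 CPM, and Ifit1, at 4.87 to 6.7 and 18.6 to 29.8 CPM, split the same way on CD. The interaction of Irf7 was called (-1.31, adjusted p = 0.0061), and so was that of Ifit1 (-1.74, adjusted p = 0.0087), but without cohort 5 they were -0.35 (adjusted p = 0.86) and -0.66 (adjusted p = 0.81). Slfn8 showed no such split and differed by -3.1 on CD.

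**Figure D3:**
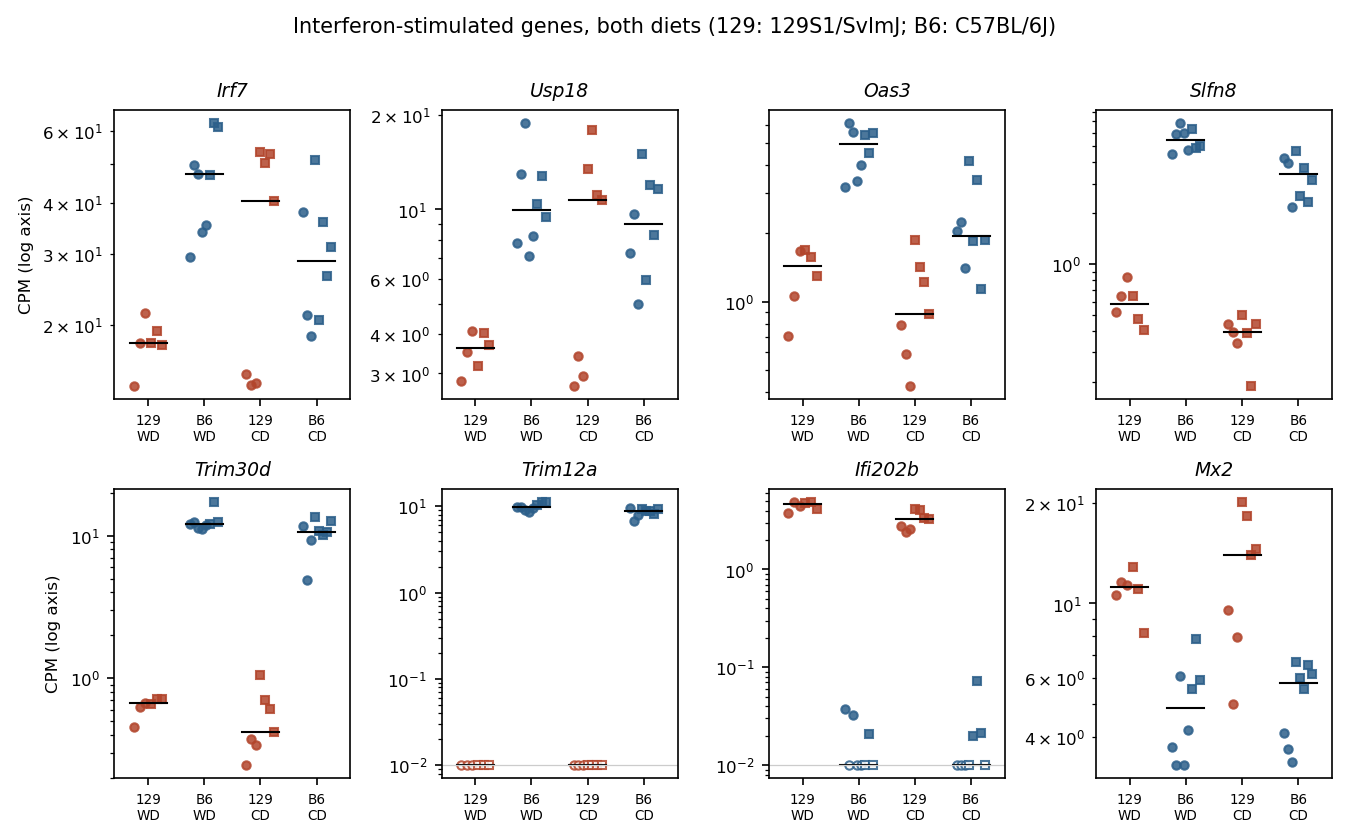
CPM on a log axis of 8 interferon-stimulated genes in each mouse of both strains (red, 129S1/SvImJ; blue, C57BL/6J) and diets; circles and squares are each strain's earlier and later cohort, bars are medians, and open symbols on the grey line are values under 0.01 CPM, including 0. Irf7 and Usp18 of 129S1/SvImJ on CD form a low cluster of cohort 3 and a high cluster of cohort 5, and Trim12a is at 0 in every 129S1/SvImJ WD mouse.

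Several macrophage and matrix genes were lower in 129S1/SvImJ. Bulk RNA cannot tell fewer cells of a type from less RNA per cell. Of 26 genes of lipid-associated macrophages, 23 were lower and 1 higher on CD, and 20 and 2 without C57BL/6J CD replicate 2. On WD 11 were lower and 0 higher. Ms4a7 (-2.35 ± 0.42), Anxa5 (-1.64 ± 0.18) and Cd63 (-1.26 ± 0.31) led, though Cd63 lost its call without C57BL/6J cohort 1 and with cohort as a term (adjusted p = 0.12). Trem2, the receptor that names these cells, was at 1.1, 2.43 and 3.26 CPM against 1.22, 4.73 and 15.4 CPM (-1.05 ± 0.37, adjusted p = 0.017), and the call was lost without C57BL/6J replicate 3, which held the 15.4 CPM, without 129S1/SvImJ replicate 1, without 129S1/SvImJ cohort 3 or 5 and with cohort as a term (adjusted p = 0.45). Without C57BL/6J cohort 1 the difference of Trem2 was 0.15 and not called. With cohort as a term 5 of the 26 were lower. Gpnmb (-0.13 ± 0.42) and Spp1 (-0.62 ± 0.3) were not called on WD, and without C57BL/6J cohort 1 that of Gpnmb was 1.29, higher in 129S1/SvImJ (adjusted p = 0.017). Gpnmb rose with WD in 129S1/SvImJ, from 0.0425 to 0.589 CPM on CD to 10.7 to 31.6 CPM (adjusted p = 6.8e-05). Of 14 Kupffer cell markers, 5 were lower, among them Marco (-1.58 ± 0.45), Adgre1 (-0.87 ± 0.21) and Vsig4 (-0.63 ± 0.19), Timd4 was higher (0.84 ± 0.34, a call lost without any of 129S1/SvImJ replicates 1, 2, 4 and 5 or C57BL/6J replicates 2, 3 and 5), and Clec4f, a defining marker, was not called (-0.24 ± 0.21). The calls of Marco, Vsig4 and Timd4 were lost without 129S1/SvImJ cohort 3, and that of Timd4 also without 129S1/SvImJ cohort 5 or C57BL/6J cohort 1. The 4 named Kupffer genes that were called all lost their call with cohort as a term (adjusted p = 0.13 for Marco, 0.057 for Adgre1, 0.055 for Vsig4 and 0.46 for Timd4), and 2 of the 14 were then lower and 0 higher. The complement genes C1qa (-0.94 ± 0.18), C1qb and C1qc, which liver macrophages express, were lower without overlap, and C1qb lost its call without 129S1/SvImJ cohort 3 or C57BL/6J cohort 1.

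Of the 14 tested inflammatory genes that the study displayed, 4 were lower and 0 higher on WD. On CD 12 were lower, and 11 without C57BL/6J CD replicate 2. The study chose this list on these samples, so its direction is not independent evidence. Ccl2, the monocyte chemoattractant, was at 3.18, 5.25 and 5.74 CPM in 129S1/SvImJ and at 2.73, 5.1 and 7.82 CPM in C57BL/6J on WD (-0.01 ± 0.21, adjusted p = 0.98). On CD it was lower in 129S1/SvImJ by 2.05 on the log2 scale (0.217 to 0.443 CPM against 0.433 to 3.26 CPM), and the interaction was called (2.05, adjusted p = 0.0075). Tnf and Icam1 were not called on WD (-0.16 ± 0.31 and -0.06 ± 0.12) and were lower on CD. Chemokines and receptors (2 higher, 11 lower of 34), antigen presentation genes (2 and 10 of 32) and T and NK cell markers (3 and 8 of 26) had mostly lower calls. So had B cell markers (0 and 5 of 18) and monocyte and neutrophil markers (1 and 3 of 16). These lists were called at 25% to 42.3%, near the 37.9% of all genes, whose calls were split 19.0% higher and 18.8% lower. Their lower counts on CD were, in the same order, 25, 20, 20, 15 and 8 (19, 21, 19, 15 and 6 without C57BL/6J CD replicate 2). On WD with cohort as a term they were 2, 4, 2, 1 and 0. Ccl9 was higher without overlap (91.5, 110 and 121 CPM against 27.4, 46.8 and 63.7 CPM, 1.26 ± 0.14, adjusted p = 1e-12).

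Collagens were lower in 14 and higher in 3 of 24. Col1a1, of fibrillar collagen, was at 14.6, 25.1 and 37.8 CPM in 129S1/SvImJ and at 14, 54.1 and 164 CPM in C57BL/6J (-1.01 ± 0.36, adjusted p = 0.02), and Col3a1 was at 36.4, 55.7 and 64.7 CPM against 43.1, 123 and 336 CPM (-1.12 ± 0.3, adjusted p = 0.002). The C57BL/6J cohorts differed: Col3a1 was at 121 to 336 CPM in cohort 1 and at 43.1 to 88.9 CPM in cohort 2. Replicate 3 held the highest value of both genes, the call of Col1a1 was lost without it, without C57BL/6J replicate 2 or without 129S1/SvImJ replicate 1 or 2, and both calls were lost without C57BL/6J cohort 1, where the difference of Col1a1 was 0.11, without 129S1/SvImJ cohort 3, and with cohort as a term (adjusted p = 0.76 for Col1a1 and 0.22 for Col3a1). With cohort as a term 3 collagens were lower and 3 higher, and without replicate 3 11 were lower. Col6a3 (-1.49 ± 0.27) did not overlap and kept its call with that term (adjusted p = 0.0029). Col18a1 (0.55 ± 0.08), Col20a1 (2.94 ± 0.19) and Col27a1 (1.1 ± 0.21) were higher without overlap. Of 46 matrix turnover and stellate cell genes, 18 were lower and 5 higher, 11 and 5 without replicate 3 and 8 and 2 with cohort as a term. Thbs1 (-1.83 ± 0.32), Thbs2 (-1.26 ± 0.26), Loxl1 (-1.4 ± 0.31) and Postn (-0.97 ± 0.18) were lower without overlap, Acta2, the marker of activated stellate cells, was not called (-0.47 ± 0.21, adjusted p = 0.065), and Fn1 was higher (0.38 ± 0.09). The calls of Postn and Fn1 were lost without C57BL/6J cohort 1, and that of Loxl1 with cohort as a term (adjusted p = 0.089). The biliary list had 6 lower and 1 higher of 20, and 0 and 0 with that term, with Krt19 not called (-0.29 ± 0.37).

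Of 39 cell cycle and p53 response genes, which include genes of growth arrest, 18 were lower and 5 higher. Ccnd1 (cyclin D1) was at 13.3, 19.2 and 25.5 CPM against 21.5, 39.6 and 115 CPM (-1.16 ± 0.27, adjusted p = 0.00033), Mcm6 was lower without overlap (-1.79 ± 0.25), and Mki67 was lower (-0.92 ± 0.33, adjusted p = 0.019). Mki67 lost its call without C57BL/6J replicate 3, without 129S1/SvImJ cohort 3 or 5 or C57BL/6J cohort 1, and with cohort as a term (adjusted p = 0.32), and Ccnd1 lost its own with that term (adjusted p = 0.075). With cohort as a term 6 of the 39 were lower and 2 higher.

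Of 25 gluconeogenesis and insulin response genes, 4 were higher and 5 lower in 129S1/SvImJ (36% called, against 37.9% of all genes). The higher members are not named here. Among those lower were 4 genes known to be induced by fasting and glucagon. Pck1, the gluconeogenic gatekeeper, was at 267, 542 and 1332 CPM against 1308, 1695 and 3110 CPM (-1.77 ± 0.3, adjusted p = 8.6e-07), with 267 to 398 CPM in cohort 3 and 686 to 1332 CPM in cohort 5. Igfbp1, which insulin represses, was at 7.17, 13.8 and 44.7 CPM against 30, 64.7 and 200 CPM (-2.13 ± 0.52, adjusted p = 0.00063), Tat was lower (-1.14 ± 0.29), and G6pc (-1.14 ± 0.36, adjusted p = 0.0078) lost its call without 129S1/SvImJ cohort 3 or C57BL/6J cohort 1 and with cohort as a term (adjusted p = 0.1). On CD, G6pc was higher in 129S1/SvImJ by 0.98 (adjusted p = 0.025, and 0.097 with that term), with a called interaction (-2.11, adjusted p = 0.01). As a whole the list had 13 higher and 2 lower of 25 on CD, and 10 and 4 without C57BL/6J CD replicate 2. On WD 4 were higher and 5 lower. Insr, the insulin receptor, was lower without overlap (-0.48 ± 0.08).

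One-carbon and amino acid metabolism was the list with the largest share higher, 28 of 53, with 8 lower (median 0.33). Gnmt, which consumes S-adenosylmethionine, was at 1198, 1352 and 1443 CPM in 129S1/SvImJ and at 520, 621 and 1107 CPM in C57BL/6J, without overlap (0.99 ± 0.12, adjusted p = 6.3e-11). Gldc of glycine cleavage (0.69 ± 0.13), and Ass1 (0.44 ± 0.11) and Arg1 (0.23 ± 0.08) of the urea cycle were higher, Cps1 was not called (0.25 ± 0.14), and Psat1 of serine synthesis was lower (-1.27 ± 0.49, adjusted p = 0.031). The calls of Psat1 and Arg1 were lost without 129S1/SvImJ replicate 1 or 3, and also without 129S1/SvImJ replicate 2 or C57BL/6J replicate 3 for Psat1 and C57BL/6J replicate 7 for Arg1. Without C57BL/6J cohort 1 those of Ass1, Arg1 and Psat1 were lost, and without 129S1/SvImJ cohort 3 those of Arg1 and Psat1. That of Psat1 was also lost without 129S1/SvImJ cohort 5. With cohort as a term 14 were higher and 4 lower, and the calls of Ass1 (adjusted p = 0.062), Arg1 (0.37) and Psat1 (0.072) were lost. Nuclear respiratory chain genes were higher in 14 and lower in 8 of 78 on WD, and in 47 and 6 on CD. The CD counts were 44 and 7 without C57BL/6J CD replicate 2. Without C57BL/6J WD replicate 3 the WD counts were 8 higher and 12 lower. Ndufs5 was lower without overlap (7.38, 8.79 and 9.43 CPM against 24.7, 32.6 and 34.3 CPM, -1.87 ± 0.07, adjusted p = 3.4e-38), and Sdhb was higher (0.58 ± 0.07). Of the mitochondrial genome's transcripts, mt-Rnr1, a ribosomal RNA, was lower without overlap (-1 ± 0.12, adjusted p = 4e-11).

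Secreted plasma proteins were higher in more cases than lower, 20 and 8 of 49 acute phase and complement genes. Apcs (serum amyloid P) was at 168, 219 and 253 CPM against 58.2, 69.5 and 97.3 CPM (1.59 ± 0.32, adjusted p = 3.4e-05), Saa4 (1.25 ± 0.28) and the clotting factor F11 (1.3 ± 0.13) were higher without overlap, though the call of Saa4 was lost without C57BL/6J cohort 1, and the inducible Saa1, Saa2 and Lcn2 were not called. Cfd (adipsin), made chiefly by fat cells, was lower (-4.58 ± 0.76, adjusted p = 6.3e-07), at 0.452, 1.08 and 3.67 CPM against 2.8, 27.8 and 150 CPM. Of the list of pancreas and adipose markers Car3 was higher, a call lost without 129S1/SvImJ replicate 1 or C57BL/6J replicate 3, without 129S1/SvImJ cohort 3 or 5 or C57BL/6J cohort 1, and with cohort as a term (adjusted p = 0.2), and the other 11 were not called. Of 31 carboxylesterases and serpins, 12 were higher and 8 lower (7 and 8 with that term), with Ces1b (2.81 ± 0.11) and Serpina3c (5.73 ± 0.36) higher and Serpina12 (-2.98 ± 0.5) lower, each without overlap. The Serpina1 copies, which share reads, went apart: Serpina1c was higher (1.25 ± 0.14) and Serpina1d (-2.52 ± 0.12) and Serpina1e (-3.28 ± 0.57) lower. In the iron list 5 of 19 were higher and 4 lower (2 and 3 with cohort as a term), with Steap3 higher (0.77 ± 0.08) and Hamp, the iron hormone hepcidin, not called (-0.5 ± 0.42).

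Beyond the lists, the largest differences were of genes near 0 in one strain. Every 129S1/SvImJ mouse was under 0.1 CPM for 22 genes with a mean of at least 2 CPM in C57BL/6J, and the reverse held for 14 genes. Myom2, a sarcomere protein, was at 10.4, 13.3 and 18.8 CPM in 129S1/SvImJ and at most 0.0644 CPM in C57BL/6J (9.65 ± 0.96, adjusted p = 2.3e-14). Cebpe, a granulocyte transcription factor, was at most 0.0611 CPM in 129S1/SvImJ and at 6.07, 9.12 and 12 CPM in C57BL/6J (-8.77 ± 0.6), and Nlrp12, an inhibitory innate immune receptor, was at 0.275, 1.06 and 2.18 CPM against 34.7, 48.9 and 102 CPM (-5.79 ± 0.55). Ctse, the intracellular protease cathepsin E, was at 118, 128 and 173 CPM in 129S1/SvImJ and at 0.754, 2.46 and 3.25 CPM in C57BL/6J, 68.8-fold (6.1 ± 0.23, adjusted p = 5.9e-40). Ren1, which encodes renin, was at 5.43, 6.45 and 8.93 CPM against at most 0.225 CPM (7.74 ± 1.23). Ren2 had no entry in the count table, and whether reads of that gene were counted on Ren1 was not tested. Of the 22 genes, the 4 pancreas enzymes Cel, Cpa1, Ctrb1 and Pnlip rest on C57BL/6J WD replicate 7 alone, and none was called.

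Several of the smallest p values belonged to a gene and its near-identical copy, between which reads can be misassigned. Gm4737 (chr16:46152985-46155077) matches Ahcy, the S-adenosylhomocysteine hydrolase, at 99.7% identity, and was at 333, 355 and 416 CPM in 129S1/SvImJ and at 3.4, 5.79 and 8.38 CPM in C57BL/6J (6.05 ± 0.16, adjusted p = 9.7e-51), while Ahcy itself was lower (-0.71 ± 0.15). Their sum was 812 ± 66.7 CPM (SD, n = 6) and 753 ± 164 CPM (n = 8), with p = 0.427 in an exact permutation test of the sums over mice (two-sided, adjusted p = 0.427 over 7 pairs). For Eif3j1 and Eif3j2 the sum was 36.6 ± 1.31 and 42.6 ± 4.81 CPM, overlapping between strains (exact permutation test, adjusted p = 0.0128), though Eif3j1 alone differed by -1.15 and Eif3j2 by 4.63. For 4 further pairs the sums did not overlap (exact permutation test, adjusted p = 0.000466 each): Rps3a1 and Rps3a3 summed to 95.6 against 160 CPM, Eno1 and Eno1b to 250 against 400 CPM, Rplp0 and Gm8730 to 221 against 333 CPM, and Atp6v0c and Atp6v0c-ps2 to 31.4 against 21.6 CPM. Further near-identical copies of some of these genes, such as Gm9625 of Rplp0 and Rps3a2 of Rps3a1, were not added to these sums. Rpl29, with the smallest p of all, was at 9.3, 12.4 and 13.4 CPM against 112, 117 and 125 CPM (-3.29 ± 0.06, adjusted p = 7.6e-63). Its near-identical copy Gm8210 was at 6.9 to 8.21 CPM in 129S1/SvImJ and at most 0.0595 CPM in C57BL/6J, and the sum of both was 19.4 against 117 CPM. Among 1129 processed pseudogenes, 103 were over 4-fold higher in 129S1/SvImJ and 19 lower, and among 14893 protein-coding genes 211 and 249.

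**Figure D4:**
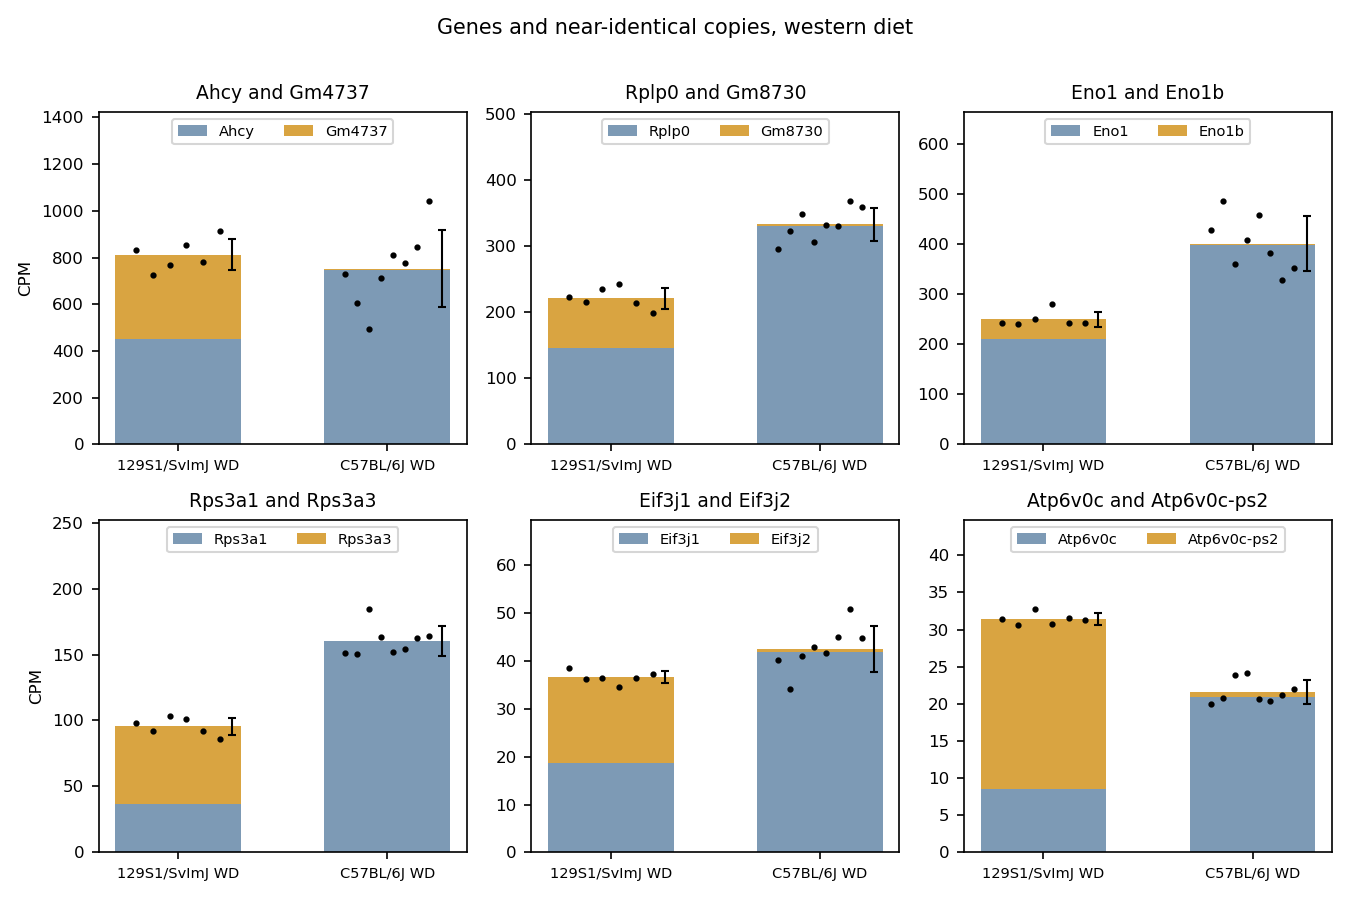
Mean CPM of 6 genes (blue) and of a near-identical copy (yellow) stacked per strain on WD, with dots at the sum in each mouse and error bars of 1 SD of the sum. The copy adds more to the sum in 129S1/SvImJ than in C57BL/6J in each pair, and the sums of Ahcy with Gm4737 overlap between strains while those of Rps3a1 with Rps3a3 do not.

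The strain difference was set beside that on CD, in other mice of the same cohorts. On CD, 9350 genes (48.9%) differed, and 5566 genes were called in the same direction on both diets (76.9% of the WD calls and 59.5% of the CD calls), 40 in opposite directions. The interaction was called for 563 genes (2.95%): for 426 the difference was smaller on WD and for 137 larger. Cyp3a11 is an example of the first kind, at 226 to 462 CPM on CD and 1228 to 2439 CPM on WD in 129S1/SvImJ, with C57BL/6J at 2179 to 5503 CPM and 3065 to 4415 CPM (difference -3.4 on CD and -0.98 on WD, interaction 2.42, adjusted p = 1.6e-06). Ccnd1 fell with WD in C57BL/6J, where it was at 46.9 to 176 CPM on CD (adjusted p = 6.9e-05). It rose with WD in 129S1/SvImJ, where it was at 4.17 to 12.9 CPM on CD (adjusted p = 0.00025). Between the strains it differed by more on CD (difference -3.92 on CD, interaction 2.77, adjusted p = 6.7e-06). Igha, an immunoglobulin constant region, reversed: it was lower in 129S1/SvImJ by 2.43 on the log2 scale on CD and higher by 2.42 on WD, a call lost without 129S1/SvImJ cohort 3 (interaction 4.85, adjusted p = 3.7e-06). Of the Mup genes, Mup17 had a called interaction of -5.92 (adjusted p = 4.1e-05), being at 0.0168 to 2.08 CPM in C57BL/6J on CD and 7.34 to 126 CPM on WD. The calls of Cyp3a11, Ccnd1, Igha, Mup17, Srebf1 and Per2 held on leaving out each cohort in turn, while without 129S1/SvImJ cohort 5 only 51 interactions were called over all genes and those of Ccl2, G6pc and Cyp1a2 were lost.

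The clock list held 8 called interactions of 23, all negative. On CD, Arntl of this list was at 22.8 to 38.4 CPM in C57BL/6J cohort 1 and at 2.28 to 10.7 CPM in cohort 2. The mice were killed within an afternoon window, and the part of the hour in these genes was not tested. Per2, a core repressor of the clock, was at 32.4, 42 and 48.3 CPM in 129S1/SvImJ and at 18.4, 36.5 and 50.1 CPM in C57BL/6J on WD (0.33 ± 0.21, adjusted p = 0.22), and on CD at 36.2 to 68.3 CPM against 7.17 to 24 CPM (2.11, adjusted p = 8.6e-14, interaction -1.78, adjusted p = 6.8e-05). Per1 (-2.03) and Ciart (-2.55) had called interactions too, both lost without 129S1/SvImJ cohort 5, and Per3 was higher on both diets (1.17 ± 0.3 on WD), the WD call being lost with cohort as a term (adjusted p = 0.1).

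**Figure D5:**
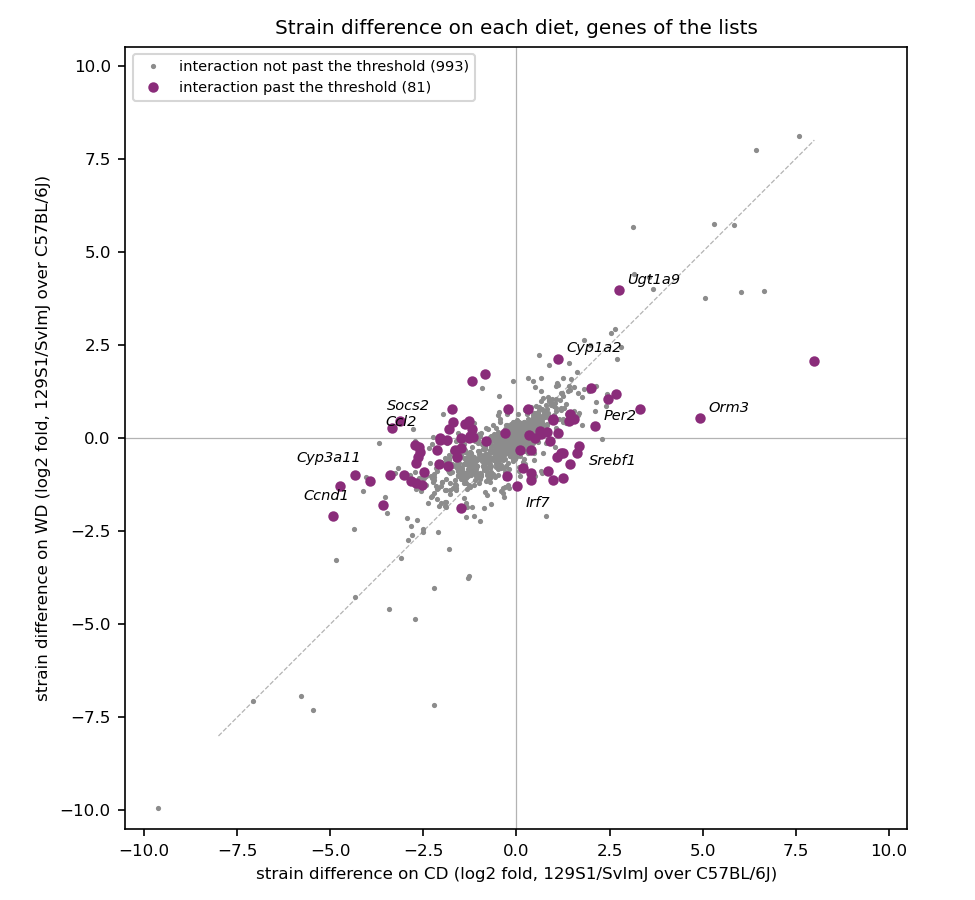
Strain difference on WD (vertical, log2 fold) against that on CD (horizontal) for the 1074 tested genes of the lists, with the dashed line marking equal differences; the 81 genes whose interaction was called are purple. Cyp3a11, Ccnd1 and Ccl2 lie above the line, at -3.4, -3.92 and -2.05 on CD and nearer 0 on WD.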

How the data were processed

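Liver mRNA of 93 male mice was sequenced on a BGISEQ-500 instrument. The authors aligned the reads to the C57BL/6J genome (GRCm38) with STAR 2.7.1a, per the submitters' processing notes, and deposited raw read counts per gene from STAR; the annotation release and strand setting are not given in the sources used here. Rows that name no gene (4) were left out. Counts were scaled by TMM in edgeR 4.0.16, genes were kept by filterByExpr at a minimum count of 10, and all 93 mice were fitted by limma-voom (limma 3.58.1, R 4.3.3) as 14 strain and diet groups that share 1 estimate of spread, with contrasts for the strain difference on WD, on CD and their interaction, and for the diet difference within each strain, and Benjamini-Hochberg adjustment at 0.05. The script was tested on simulated counts.

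Replicates are separate mice, numbered in accession order, and no 2 libraries of a group agreed within sampling noise. Alternatives covered DESeq2 1.42.0 and edgeR tests, other scalings and filters, cohort as a term, and leaving out mice or cohorts; leaving out both libraries that stood apart was chosen after seeing the data. The gene lists were chosen with earlier results of these data known. Named genes were up to 4 called members of each list with the largest difference at 1 CPM or more and members with set roles, the 10 largest non-overlapping changes per direction at 8 CPM or more, genes under 0.1 CPM in 1 strain and at 2 CPM or more in the other, the 8 largest interactions per direction, Nnt and the 10 smallest p-values; others were named after their values were seen. Copies were transcripts matching at 95% identity or more over at least 50% of the length. Floors of 3 reads cover counting error only. Some list members are not reported here.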

Additional observations from a re-analysis of the deposited data

Results flagged for a closer look

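Some mice lay far from the rest of their group in a named gene (a gap to the nearest mouse that is a large part of the group's range, by Dixon's critical value, which chance passes in about 1 of 20 groups). C57BL/6J WD replicate 3, the library that stood apart, was the highest of its 8 mice in Ccnd1 (115 CPM), Col6a3 (92 CPM), Cyp2b10 (11.7 CPM), Gpnmb (104 CPM), Gpx3 (51.7 CPM), Igfbp1 (200 CPM), Igha (5.97 CPM), Krt19 (8.66 CPM), Loxl1 (19.5 CPM), Mki67 (15.2 CPM), Psat1 (5.52 CPM), Rps3a1 (184 CPM) and Thbs2 (19.5 CPM). It was the lowest in Cat (1635 CPM), Cyp2e1 (1936 CPM), Dgat2 (305 CPM), Fitm1 (8.02 CPM), Ghr (291 CPM), Mttp (250 CPM), Ndufs5 (24.7 CPM) and Sdhb (102 CPM). C57BL/6J WD replicate 7 was the highest in Apoa5 (894 CPM), Cel (17.2 CPM), Cpa1 (19.3 CPM), Ctrb1 (21 CPM), Ifit1 (20.5 CPM), Mup15 (62.5 CPM), Pnlip (19.7 CPM) and Trim30d (17.3 CPM), of which Cel, Cpa1, Ctrb1 and Pnlip are pancreas enzymes. The other C57BL/6J mice so placed were replicate 4 for Adgre1 (highest, 129 CPM), replicate 4 for Marco (highest, 88.5 CPM) and replicate 6 for Sult1e1 (highest, 4.86 CPM). Among the 6 129S1/SvImJ WD mice they were replicate 4 for Apoc3 (highest, 1429 CPM), replicate 1 for Cd63 (lowest, 6.14 CPM), replicate 1 for Eif3j1 (highest, 20.4 CPM), replicate 5 for Elovl6 (highest, 66.5 CPM), replicate 4 for Eno1 (highest, 236 CPM), replicate 6 for G6pc (highest, 410 CPM), replicate 3 for Hsd3b5 (highest, 197 CPM), replicate 6 for Igf1 (highest, 633 CPM), replicate 6 for Igfbp1 (highest, 44.7 CPM), replicate 2 for Krt19 (highest, 11.7 CPM), replicate 5 for Rpl29 (lowest, 9.3 CPM), replicate 4 for Serpina3c (highest, 38.7 CPM) and replicate 6 for Tat (highest, 932 CPM).

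For some genes the strain difference itself differed between diets by the interaction term of limma-voom. The difference on WD minus that on CD (log2) was positive for Alb (0.43, adjusted p = 0.044), Ccl2 (2.05, adjusted p = 0.0075), Ccnd1 (2.77, adjusted p = 6.7e-06), Cyp1a2 (1.00, adjusted p = 0.035), Cyp3a11 (2.42, adjusted p = 1.6e-06), Gbp11 (2.7, adjusted p = 0.014), Hsd17b7 (1.02, adjusted p = 0.02), Igha (4.85, adjusted p = 3.7e-06), Mcm6 (1.78, adjusted p = 0.0091), Pparg (1.54, adjusted p = 0.029), Steap3 (0.45, adjusted p = 0.011) and Ugt1a9 (1.22, adjusted p = 0.0012). It was negative for Apoa5 (-0.78, adjusted p = 0.0061), Ciart (-2.55, adjusted p = 0.0088), Dgat2 (-0.52, adjusted p = 0.021), G6pc (-2.11, adjusted p = 0.01), Ifit1 (-1.74, adjusted p = 0.0087), Ifit3 (-1, adjusted p = 0.036), Irf7 (-1.31, adjusted p = 0.0061), Mup15 (-6.14, adjusted p = 0.0058), Mup17 (-5.92, adjusted p = 4.1e-05), Ndufs5 (-0.39, adjusted p = 0.017), Per1 (-2.03, adjusted p = 0.01), Per2 (-1.78, adjusted p = 6.8e-05), Per3 (-1.50, adjusted p = 0.038), Srebf1 (-1.87, adjusted p = 5.4e-05) and Tat (-1.52, adjusted p = 0.025).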

How the results depend on the processing

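On WD 7234 genes were called, and 4508 with cohort as a term (2338 higher, 2170 lower), 4619 without 129S1/SvImJ cohort 3 (2071 lower) and 784 by limma treat at a log2 fold change of 1. Leaving out each mouse gave 6589 to 7267. The interaction, with 563 calls, moved most: 927 by DESeq2, 1072 with no filter, 229 with only the mice of both strains, 1257 with sample quality weights, 869 without both C57BL/6J mice that stood apart, 341 and 51 without 129S1/SvImJ cohorts 3 and 5, 1509 and 1044 without C57BL/6J cohorts 1 and 2, and 387 to 1216 on leaving out 1 WD mouse, the last without C57BL/6J replicate 3. The cause of these moves was not tested. Of the named WD calls, those of Mup7 and Timd4 were lost by DESeq2 and by edgeR, and that of G6pc by edgeR. With no filter 11 were lost (Acacb, Arg1, Cyp51, Fasn, G6pc, Igfbp1, Mup17, Scd1, Serpina1e, Tat and Timd4), and with only the mice of both strains 11 (Car3, Col1a1, Cyp2b9, Ifit1, Isg15, Marco, Mki67, Mup11, Psat1, Timd4 and Trem2). No paired analysis was possible because replicate numbers were given in accession order and pair no mice. Differences of the following genes changed sign (log2 values); the cause was not tested. By DESeq2 these were Cyp2b10 (-0.61) and Krt19 (0.24). With RNA integrity as a covariate these were Cyp2b10 (-0.05). With cohort as a term these were Ccl2 (0.22), Gpnmb (0.26), Krt19 (0.09), Plin5 (0.02) and Stat5b (-0.08). By edgeR these were Cyp2b10 (-0.59) and Krt19 (0.26). Without both mice that stood apart these were Gpnmb (0.19), Icam1 (0.00) and Krt19 (0.02). With no filter these were Stat2 (0.00). With sample quality weights these were Abcb11 (0.00), Krt19 (0.03) and Stat2 (0.05). With upper-quartile scaling these were Ccl2 (0.00) and Stat2 (0.00). Without 129S1/SvImJ cohort 3 these were Ccl2 (0.16), Cyp2b10 (-0.06), Gpnmb (0.20), Icam1 (0.08) and Tnf (0.22). Without 129S1/SvImJ cohort 5 these were Abcb11 (0.11), Krt19 (0.68), Plin1 (0.24) and Stat2 (0.04). Without C57BL/6J cohort 1 these were Ccl2 (0.34), Col1a1 (0.11), Cps1 (-0.26), Cyp8b1 (-0.08), Gpnmb (1.29), Icam1 (0.04), Krt19 (0.18), Mup7 (-0.19), Saa2 (-0.21), Spp1 (0.28), Stat5b (-0.02), Tnf (0.09) and Trem2 (0.15). Without C57BL/6J cohort 2 these were Abcb11 (0.07), Ctrb1 (0.83), Cyp2b10 (-0.64), Pnlip (0.68) and Stat2 (0.13). The lowest and highest values on leaving out 1 mouse were, by gene, Abcb11 (-0.09 to 0.01), Ccl2 (-0.11 to 0.11), Ctrb1 (-1.30 to 0.29), Cyp2b10 (-0.30 to 0.47), Gpnmb (-0.50 to 0.19), Icam1 (-0.11 to 0.03), Krt19 (-0.83 to 0.02), Pnlip (-1.32 to 0.25), Stat2 (-0.04 to 0.05) and Tnf (-0.33 to 0.01).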
